A study of Mus musculus with 12 samples.

Results

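The cytoplasmic ribosomal protein genes described here are the protein-coding genes whose mouse symbol carries the Rps or Rpl stem followed by a number (with an optional a, x or l), together with *Rpsa*, *Rplp0*, *Rplp1* and *Rplp2*, and which reached a CPM (counts scaled to library size) of at least 1 in at least 6 mice. Of 27179 genes in the count table, 84 protein-coding genes carried such a symbol and 78 passed the CPM filter, 32 of the small subunit and 46 of the large subunit. The 78 members passed it in all 12 mice. Counts came from the hippocampus of mice 3 months old, of which 6 were *Nell-1+/6R* and 6 were WT littermates, and both groups held 3 females and 3 males. The 6R allele of *Nell-1* arose from chemical mutagenesis with N-ethyl-N-nitrosourea, and the heterozygous mice carry 1 such allele in every tissue, so the comparison is between mice with 1 and with 2 working copies of *Nell-1*. The sources used here name no strain background.

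Ribosomal proteins assemble with ribosomal RNA in the nucleolus into a small subunit, which decodes mRNA, and a large subunit, which forms peptide bonds. Their mRNAs are short and abundant, and many begin with a C followed by a run of pyrimidines (the 5' TOP motif), through which mTORC1 and the RNA-binding protein LARP1 control their translation. Most have been copied back into the genome many times as processed pseudogenes, which resemble the mature mRNA. In neurons, ribosomal protein mRNAs are also found in dendrites and axons, where local translation takes place.

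Total counts ranged from 10834905 to 16016317 per mouse. *Nell1*, on chromosome 7 at 49975350 to 50863289 of GRCm38, stood at 30.6 to 44 TMM-scaled CPM in the 6 WT mice (median 35.8) and at 17.2 to 20.8 in the 6 *Nell-1+/6R* mice (median 19.1), and the groups did not overlap. Its log2 fold change was -0.93 (SE 0.080, adjusted p 0.00015 by edgeR's quasi-likelihood test). The 8 markers of hippocampal principal neurons were detected, with a summed level of 830 to 949 CPM in WT mice against 824 to 997 CPM in *Nell-1+/6R* mice, and at an unadjusted p under 0.05 2 of the 8 were higher in *Nell-1+/6R* mice while 1 was lower (over all genes 1.06% and 2.2%). *Ttr*, a choroid plexus transcript, ranged from 13.5 to 4774.5 CPM and exceeded 1000 CPM in 3 mice, female WT replicate 1, male WT replicate 3 and female *Nell-1+/6R* replicate 1. The 5 choroid plexus markers together spanned 49.3 to 4535.3 CPM in WT mice against 41.1 to 5219.8 CPM in *Nell-1+/6R* mice, and none was at 0 in all mice. Their log2 fold changes were all below 0, from -2.21 to -0.65 (median -1.07), and 0 of 5 had an unadjusted p under 0.05. Of 7 leptomeningeal fibroblast markers, 4 were lower in *Nell-1+/6R* mice at an unadjusted p under 0.05, with summed levels of 105 to 351 CPM against 63.7 to 374 CPM. Of 4 red blood cell markers listed, 2 were tested, and 1 of these was lower, with a log2 fold change of -0.40. The other had 0.30 and did not pass. Summed levels were 6.74 to 18.4 CPM in WT mice against 6.47 to 11.2 CPM in *Nell-1+/6R* mice. None of these calls had an adjusted p under 0.05, and their part in the members' values was not tested.

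Levels of the members were set side by side as CPM per kilobase of the union of each gene's exons. The median member stood at 22 CPM per kilobase, against 3.96 for the median of 15619 other protein-coding genes tested, and members spread over a 536-fold range. With the length of the main mRNA in place of the exon union, the members' median was 56.4 and their range 293-fold. *Rplp1*, an acidic protein of the stalk that recruits translation factors, was highest at 501 ± 43.1 CPM per kilobase in WT mice and 529 ± 87.1 in *Nell-1+/6R* mice (mean ± SD over 6 mice each). After it came *Rps15*, a protein of the small subunit head, at 232 ± 21.8 in WT and 243 ± 30.8 in *Nell-1+/6R* mice. *Rpl8* of the large subunit reached 170 ± 13.3 and 179 ± 17.3, and *Rps21* of the small subunit 165 ± 17.9 and 173 ± 22.6. *Rpl4*, which lines the peptide exit tunnel, stood at 149 ± 13.7 and 151 ± 13.0, and *Rps29*, a small zinc-binding protein of the small subunit, at 125 ± 10.4 and 131 ± 22.6. *Rpl8* and *Rps21* overlapped in their spreads, as did *Rps21* and *Rpl4*, whereas *Rplp1* lay apart from all others. By main mRNA length *Rplp1* remained first at 515, while *Rps21* at 348 passed *Rps15* at 299 and *Rpl8* at 279, and *Rpl4* at 196 left the 6 highest.

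**Figure D1:**
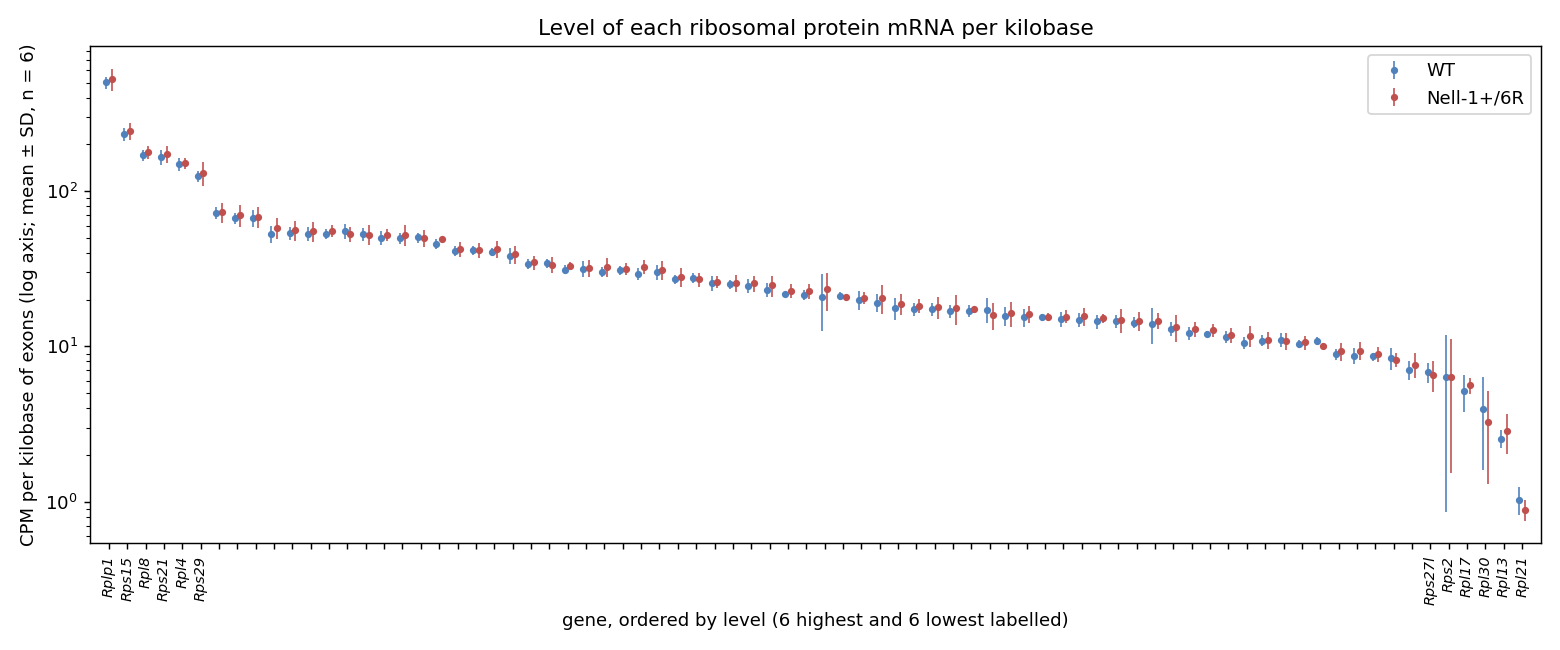
Level of each of the 78 ribosomal protein mRNAs in CPM per kilobase of exons on a log axis, as mean ± SD of 6 WT (blue) and 6 *Nell-1+/6R* (red) mice, ordered by level. *Rplp1* leads at a mean of 515 and *Rpl21* is last at 0.96, and the error bars of both genotypes overlap along the whole order.

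At the low end, *Rpl21* stood at 1.03 ± 0.21 CPM per kilobase in WT and 0.89 ± 0.13 in *Nell-1+/6R* mice. It was followed upwards by *Rpl13* with a mean of 2.70 over the 12 mice, *Rpl30* with 3.60, *Rpl17* with 5.39, *Rps2* with 6.37 and *Rps27l* with 6.67. The first 5 of these are core proteins present in every ribosome, whereas *Rps27l* is a paralog of *Rps27*. By main mRNA length *Rpl30* rose to 19.1 and left the 6 lowest, while *Rpl21* at 1.76 and *Rpl13* at 8.98 stayed there.

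The 6 genes with a fitting symbol that failed the filter included 2 core proteins of the ribosome. *Rpl29* had 1 to 12 counts per mouse, with 0.28 ± 0.12 CPM (SD, n = 6) in WT mice against 0.51 ± 0.22 CPM (SD, n = 6) in their *Nell-1+/6R* counterparts, and *Rpl39*, which sits at the exit tunnel, had 0 counts in 11 mice and 1 count in male *Nell-1+/6R* replicate 3. *Rpl29* was tested with the other genes and had a log2 fold change of 0.89 (SE 0.39, unadjusted p 0.041, adjusted p 1.00 by edgeR's quasi-likelihood test), at a depth of at most 12 counts. The other 4 were *Rpl3l* (3 to 9 counts), *Rpl10l* (0 in every mouse), *Rpl39l* (0 to 3) and *Rpl32l* (0 to 5). The first 3 are paralogs, while *Rpl32l* is protein-coding in RefSeq and a processed pseudogene in GENCODE M21. *Rpl3l* is known from heart and skeletal muscle and *Rpl10l* and *Rpl39l* from testis. Among paralogs that did pass, *Rpl22l1* stood at 17.3 ± 2.05 CPM in WT mice against 18.7 ± 2.51 in *Nell-1+/6R* mice, and *Rpl7l1* at 37.9 ± 2.46 and 35.4 ± 1.49.

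Members shared much of their sequence with other loci. Reads were 50 bases long, so the main mRNA of each gene was broken into all its stretches of 50 bases and each was looked up in the GENCODE M21 transcripts of every other locus. The median member shared 49.9% of its stretches and 39 of 78 shared more than 50%, against a median of 0% over the other protein-coding genes. The highest value, 98.6%, belonged to *Rps27* of the small subunit. Among these loci a member had a median of 8 pseudogenes. The most belonged to *Rpl7a* with 120, and *Rpl21* and *Rpl29*, which are among the lowest genes above, had 81 each, with *Rps2* at 71 and *Rpl17* at 50. The other low genes had fewer, with 15 for *Rpl13*, 16 for *Rpl30* and 4 for *Rps27l*. Across the 78 members the Spearman correlation of level per kilobase with the number of pseudogenes was -0.41, and with the share of stretches -0.18. These are descriptions across genes, which are not independent, and the sources used here do not say how reads that fit several loci were treated.

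The genotypes were then compared gene by gene. No member passed an unadjusted p of 0.05 in edgeR's quasi-likelihood test in either direction, where 3.26% of the 17937 genes tested did (1.06% with more and 2.2% with less in *Nell-1+/6R* mice). Likewise 0 members passed the thresholds used in the study, an unadjusted p of 0.05 with a fold change above 1.5 (background 1.46%), and 0 had an adjusted p under 0.05 (background 0.039%). DESeq2 gave 1 member with an unadjusted p under 0.05, *Rpl3*, and limma-voom gave 0, and neither gave one with an adjusted p under 0.05. In no member did the values of the 6 *Nell-1+/6R* mice lie apart from those of the 6 WT mice, where 0.151% of all genes did so. The median log2 fold change of the members was 0.05 and that of all genes 0.00. The members' median was 0.01 without female *Nell-1+/6R* replicate 1, 0.02 without female WT replicate 3, 0.03 without female *Nell-1+/6R* replicate 2, 0.09 without male WT replicate 1 and 0.08 without male *Nell-1+/6R* replicate 3. Estimates were above 0 for 63 members and below 0 for 15, none of which passed the test, and 65 were smaller than 0.1 in size. Standard errors had a median of 0.083. Left out alone, 4 mice changed the count of members with an unadjusted p under 0.05: without male WT replicate 1 it was 4 (*Rpl3*, *Rpl22*, *Rpl31* and *Rps12*), without male *Nell-1+/6R* replicate 2 or without female WT replicate 2 it was 1 (*Rpl3*), and without male *Nell-1+/6R* replicate 3 it was 1 (*Rpl31*). All of these were higher in *Nell-1+/6R* mice and none had an adjusted p under 0.05. Fewer cells of a type and less RNA per cell cannot be told apart in such bulk tissue.

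**Figure D2:**
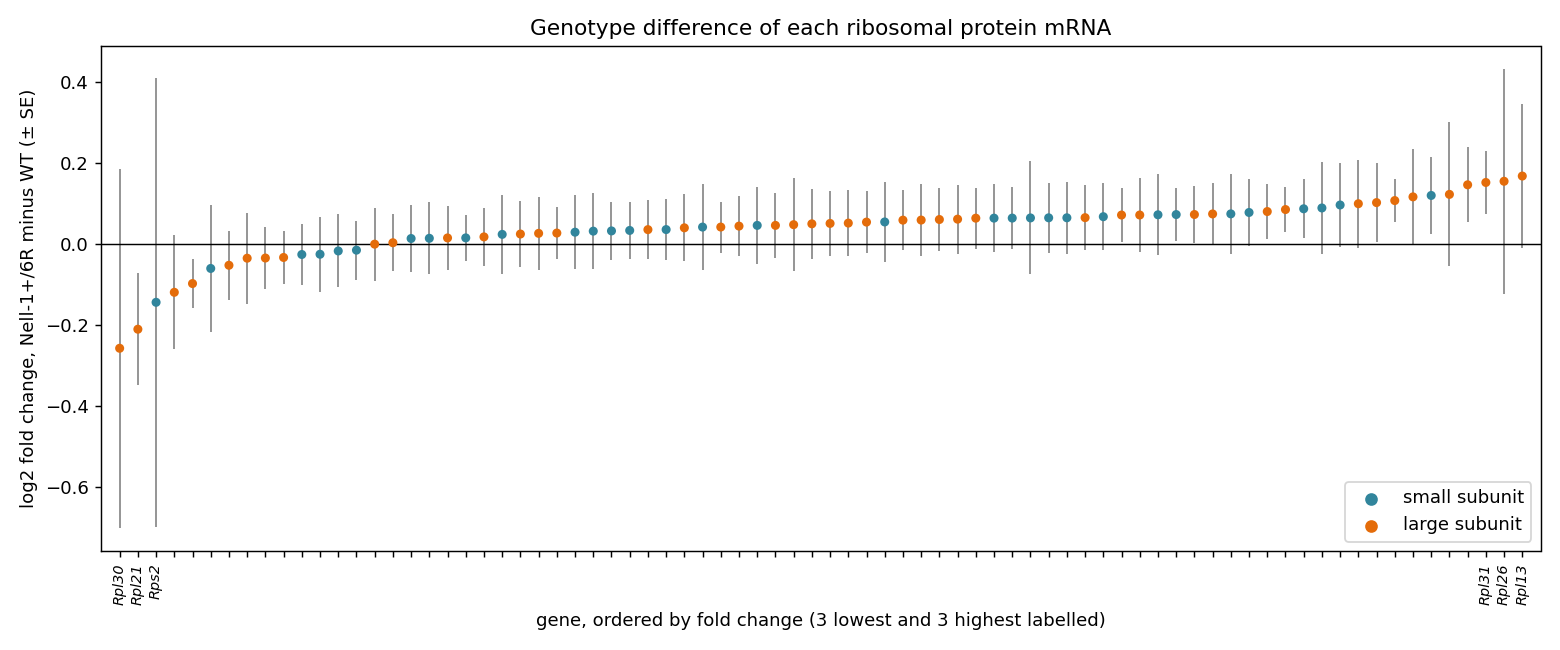
Log2 fold change of each member, *Nell-1+/6R* minus WT, with its standard error, from the lowest to the highest and coloured by subunit. Estimates run from -0.26 for *Rpl30* to 0.17 for *Rpl13*, and the widest bars belong to *Rps2*, *Rpl30* and *Rpl26*.

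*Rpl3*, an early-assembling protein near the peptidyl transferase centre, had the smallest p. It stood at 136 to 165 CPM in WT (median 141) and at 151 to 160.4 CPM in *Nell-1+/6R* mice (median 159.5). The *Nell-1+/6R* values lay within the WT range, in its upper part. Its log2 fold change was 0.11 (SE 0.054, unadjusted p 0.068, adjusted p 1.00 by edgeR's test). *Rpl31*, at the rim of the exit tunnel, spanned 43.7 to 56.6 CPM in WT (median 47.8) and 45.6 to 60.1 CPM in *Nell-1+/6R* mice (median 55.3), with a log2 fold change of 0.15 (SE 0.079, unadjusted p 0.076). *Rpl7l1* was next with -0.10 (SE 0.060, unadjusted p 0.12), and its 35.4 to 42.1 CPM in WT overlapped 33.4 to 37.4 CPM in *Nell-1+/6R* mice. Among the 3 highest and 3 lowest estimates, apart from *Rpl31* above, *Rpl13* had 0.17 (SE 0.18) and *Rpl26* 0.15 (SE 0.28), while *Rpl30* had -0.26 (SE 0.44), *Rpl21* -0.21 (SE 0.14) and *Rps2* -0.14 (SE 0.55). The estimate of *Rps2* ran from -0.39 to 0.53 when single mice were left out, the highest without female WT replicate 1. It was 0.97 without the 3 mice with *Ttr* above 1000 CPM. In the model of 4 groups *Rps2* stood at -0.92 in females and 0.57 in males. The estimate of *Rpl26* turned to -0.04 without female WT replicate 3. *Rpl30* ran from -0.56 without female *Nell-1+/6R* replicate 2 to -0.03 without male WT replicate 3, and stood at 0.37 in females alone and -0.89 in males alone. *Rpl13* ran from 0.00059 without male *Nell-1+/6R* replicate 1 to 0.26 without male *Nell-1+/6R* replicate 2, and *Rpl21* from -0.25 without male WT replicate 3 to -0.12 without male WT replicate 1.

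Grouped by role, no list stood out by its counts. Median log2 fold changes were 0.04 for the 32 small subunit and 0.05 for the 46 large subunit members. The stalk genes *Rplp0*, *Rplp1*, *Rplp2* and *Rpl12* had -0.05, 0.07, 0.06 and 0.04. *Rpl5* and *Rpl11*, which bind 5S rRNA and can hold back MDM2 when free, had 0.01 and 0.08. The 8 exit tunnel members ran from -0.03 to 0.15, and the 12 genes linked to Diamond-Blackfan anaemia, a congenital failure of red cell production, from 0.01 to 0.15. *Nell1* lies on chromosome 7 with 14 members. The nearest were *Rpl18* (4.70 Mb between midpoints) and *Rpl13a* (5.29 Mb), with log2 fold changes of 0.04 and 0.06. The chromosome 7 median was 0.05, as was that of the 61 members on other autosomes, at 0.05. The X-linked members *Rpl10*, *Rpl36a* and *Rps4x* had 0.10, 0.05 and 0.07.

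Other genes of the ribosome and of translation were read in the same fit, where 3.26% of all genes had an unadjusted p under 0.05 and 1.06% were also higher in *Nell-1+/6R* mice. A list of ribosomal protein genes outside the symbol rule, with *Fau*, *Rpl36al* and *Rack1* in it, gave 0 of 4 genes with an unadjusted p under 0.05 and a median of 0.04. Elongation factors and other 5' TOP mRNAs gave 1 of 17, *Eef1g*, a subunit of the elongation factor 1 complex, at 66.0 to 70.7 CPM in WT (median 69.0) and 68.5 to 89.9 CPM in *Nell-1+/6R* mice (median 79.3). The ranges overlapped, with a log2 fold change of 0.20 (SE 0.068, unadjusted p 0.0096, adjusted p 1.00 by edgeR's test). Ribosome biogenesis genes gave 0 of 28 with a median of 0.00, and mTORC1 and its ribosomal protein regulators 0 of 16 with a median of -0.01. Genes with a mitochondrial ribosomal protein symbol (Mrpl or Mrps and a number) gave 1 of 77. This was *Mrps36*, taken in by its symbol alone, with a log2 fold change of 0.49 (SE 0.18, unadjusted p 0.014 by edgeR's test). It stood at 2.20 to 3.73 CPM in WT mice against 2.83 to 5.46 CPM in *Nell-1+/6R* mice. Nuclear genes of the respiratory chain gave 1 of 96, *Ndufb4*, with 0.16 (SE 0.070, unadjusted p 0.034). None of these had an adjusted p under 0.05.

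Mouse by mouse, the members moved together far more than the genotypes did. Their share of all counts ran from 0.436% to 0.521% in WT (median 0.466%) and from 0.407% to 0.575% in *Nell-1+/6R* mice (median 0.466%), so the *Nell-1+/6R* range enclosed the WT range. In each mouse the deviation of every member from its mean over the 12 mice was taken on the log2 CPM scale. The median deviation was highest in female *Nell-1+/6R* replicate 1 at 0.24, where 73 of 78 members lay above their mean. It was 0.19 in female *Nell-1+/6R* replicate 2 (74 members above) and 0.13 in male WT replicate 1 (71 above). It was lowest in male *Nell-1+/6R* replicate 3 at -0.16, with 7 members above. Female WT replicate 3, male WT replicate 2 and male WT replicate 3 each had -0.11, with 10, 10 and 9 above. The remaining 5 mice lay between -0.07 and 0.06. Both the highest and the lowest mouse were *Nell-1+/6R*, and the small and large subunit medians had the same sign in 10 of 12 mice.

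Other short mRNAs followed a like order. Over 579 further protein-coding genes with a main mRNA under 1000 bases, the median deviation ran from -0.11 to 0.17 and had the same sign as the members' median in 12 of 12 mice. The same held in 12 of 12 mice for 96 respiratory chain genes, from -0.10 to 0.20. It also held for the 77 genes with a mitochondrial ribosomal protein symbol, from -0.13 to 0.13. The median member mRNA was 832 bases long, against 2903 over the other protein-coding genes. The part of mRNA length in the order of the mice was not tested. In the 3 mice with *Ttr* above 1000 CPM, the median deviation of the members was 0.24 in female *Nell-1+/6R* replicate 1 (*Ttr* at 4774.5 CPM), -0.11 in male WT replicate 3 (4259.8 CPM) and 0.01 in female WT replicate 1 (1915.4 CPM). Without these 3 mice the members' median log2 fold change between genotypes was -0.01 in place of 0.05. The part of choroid plexus RNA was not tested.

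**Figure D3:**
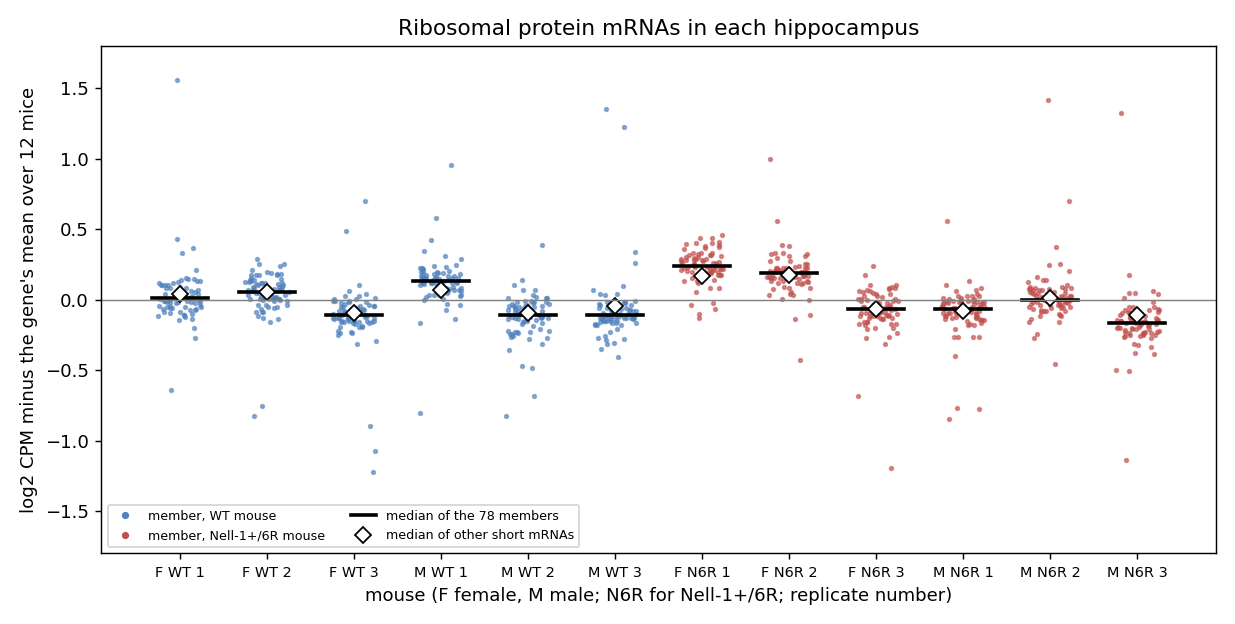
Deviation of each of the 78 members from its own mean over 12 mice, on the log2 CPM scale, with 1 point per gene, a bar for the median of the members and an open diamond for the median of 579 other short mRNAs. Bars range from 0.24 in female *Nell-1+/6R* replicate 1 to -0.16 in male *Nell-1+/6R* replicate 3, and the diamonds have the same sign as the bars in all 12 mice.

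Over all 3003 pairs of members the median Pearson correlation across the 12 mice was 0.67, and 90.8% of pairs were above 0, as a description of points that share libraries and depth. The median SD of a member over mice was 0.16 on the log2 scale, where counting alone would give 0.060, and 3019 other genes of the same level had a median of 0.13. *Rpl23a* (0.076), *Rps15a* (0.083) and *Rpl22* (0.089) varied least. *Rps15a* spanned 87.8 to 106.5 CPM over the 12 mice and *Rpl22* 85.8 to 102.6 CPM. *Rpl15*, *Rps15a*, *Rps2* and *Rpl23a* had a negative median correlation with the other members, -0.31, -0.22, -0.18 and -0.09.

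The 3 members with the widest spread were high in some mice and low in others. *Rps2*, a small subunit protein at the mRNA entry channel, had an SD of 1.07 on the log2 scale. It stood at 26.2, 5.02 and 4.23 CPM in female WT, at 5.10, 6.34 and 22.8 CPM in male WT, at 8.51, 6.60 and 3.89 CPM in female *Nell-1+/6R* and at 5.21, 23.7 and 22.3 CPM in male *Nell-1+/6R* mice, replicates 1 to 3 each. Values lay above 22 CPM in 4 mice, 2 of each genotype, and at 8.51 CPM or lower in the other 8, with none between. *Rpl30*, which lies at the interface of the subunits, had an SD of 0.86. It stood at 5.93, 5.48 and 15.01 CPM in female WT, at 17.9, 5.75 and 21.6 CPM in male WT, at 10.3, 18.4 and 5.73 CPM in female *Nell-1+/6R* and at 5.14, 14.98 and 4.20 CPM in male *Nell-1+/6R* mice. Here 6 mice lay below 6 CPM, 5 at 14.98 CPM or more and 1 at 10.3 CPM, and the high mice were not those with high *Rps2*, apart from male WT replicate 3 and male *Nell-1+/6R* replicate 2.

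*Rpl26*, at the exit tunnel, had an SD of 0.59. It stood at 37.5, 35.5 and 12.8 CPM in female WT, at 39.9, 16.8 and 37.7 CPM in male WT, at 40.4, 43.9 and 30.7 CPM in female *Nell-1+/6R* and at 17.5, 35.5 and 33.7 CPM in male *Nell-1+/6R* mice. It was low in 3 mice, female WT replicate 3, male WT replicate 2 and male *Nell-1+/6R* replicate 1. In these same 3 mice *Gm15772*, a processed pseudogene on chromosome 5 that shares 289 stretches of 50 bases with *Rpl26*, stood at 14.1, 18.9 and 18 CPM, against 8.31 to 11.4 CPM in the other 9. *Gm15772* took 52.5%, 52.8% and 50.7% of the summed counts of both loci in the 3 mice and 19.2% to 22.1% in the other 9. The sum itself was steadier than *Rpl26*, with an SD of 0.28, but remained lower in the 3 mice, at 26.9, 35.7 and 35.5 CPM, than in the others, at 39.4 to 55.3 CPM. *Gm15772* was singled out after its values were seen. No such partner was found for *Rps2* or *Rpl30* among the sharing loci in the count table, 2 of 71 and 5 of 16, which had at most 7 counts in any mouse. Their other sharing loci were not in the count table and could not be read.

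**Figure D4:**
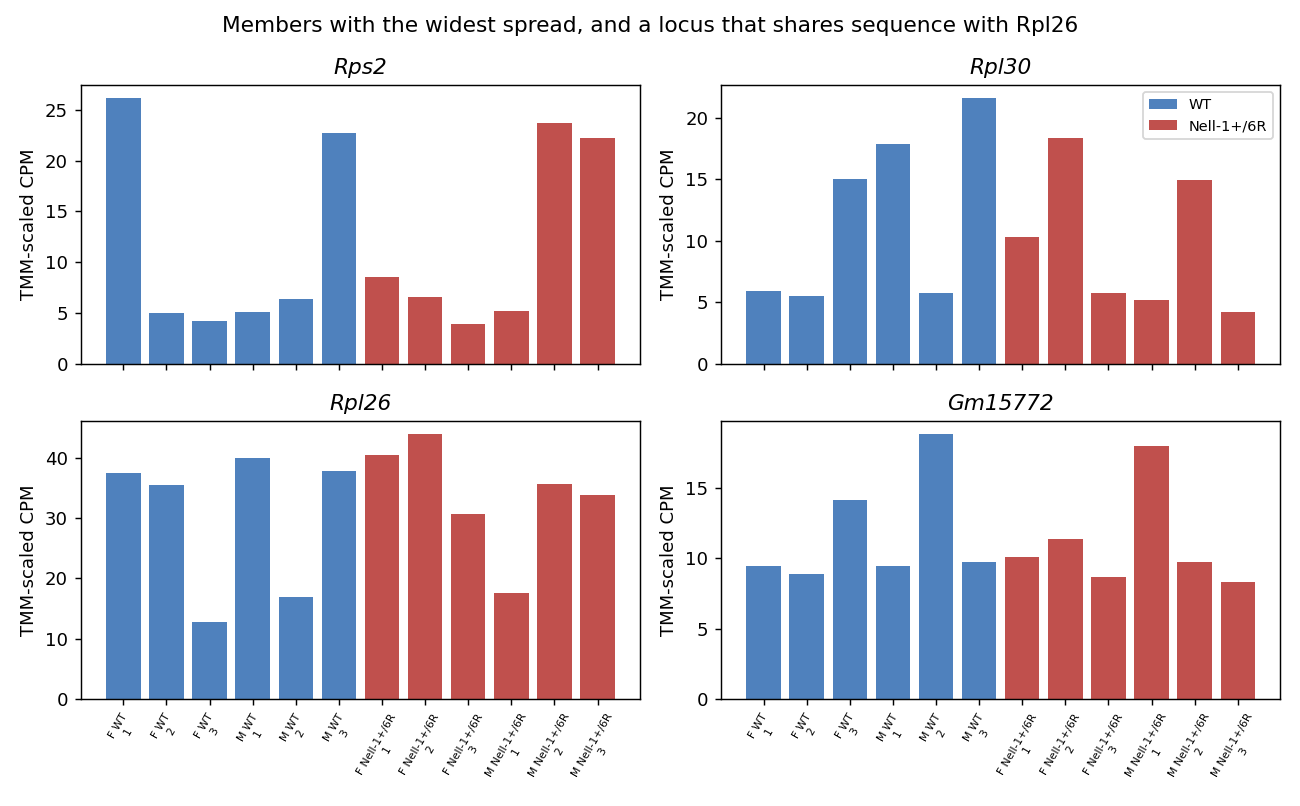
TMM-scaled CPM of *Rps2*, *Rpl30*, *Rpl26* and the pseudogene *Gm15772* in each of the 12 mice (blue WT, red *Nell-1+/6R*, F female, M male, replicate number below). *Rps2* exceeds 22 CPM in 4 mice, 2 of each genotype, and *Gm15772* is highest in the 3 mice in which *Rpl26* is lowest.

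The sequences of *Rpl26* and *Rps2* are each shown with a pseudogene that shares many stretches with it, since a read of 50 bases often has no base that tells them apart. Each is a window of 90 bases of the coding sequence from the GENCODE M21 transcripts, and capitals mark the bases at which member and pseudogene differ. *Rpl26* and *Gm15772* differed at 2 of 435 aligned coding bases, and *Rps2* and *Rps2-ps13* (chromosome X) at 7 of 879. *Gm15772* is in the count table, whereas *Rps2-ps13* is not, so its counts are not known.
Rpl26: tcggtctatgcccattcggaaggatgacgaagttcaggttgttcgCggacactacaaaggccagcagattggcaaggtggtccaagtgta
Gm15772: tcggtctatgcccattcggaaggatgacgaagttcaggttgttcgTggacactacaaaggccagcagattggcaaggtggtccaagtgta
Rps2: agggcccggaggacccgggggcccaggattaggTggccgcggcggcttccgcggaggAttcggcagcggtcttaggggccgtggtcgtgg
Rps2-ps13: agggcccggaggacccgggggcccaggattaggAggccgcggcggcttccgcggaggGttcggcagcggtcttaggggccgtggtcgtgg
The members themselves remained within the genotype ranges given above, and the part of shared sequence in their spread was not tested.

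Sex was compared in the same fit. Of the 78 members, 13 were higher in females at an unadjusted p under 0.05 (background 2.85%) and 0 lower (background 1.87%), and none had an adjusted p under 0.05, the smallest being 0.87 by edgeR's quasi-likelihood test. DESeq2 gave 12 and limma-voom 15. The median log2 difference, female minus male, was 0.10 for the members, 0.00 for all genes and 0.10 for the 579 other short mRNAs, of which 10% were higher in females at an unadjusted p under 0.05. Nuclear genes of the respiratory chain gave 19 of 96 higher in females, with a median of 0.09. Both red blood cell markers tested were higher in females at an unadjusted p under 0.05, and the 5 choroid plexus and 5 oligodendrocyte markers had medians of 1.39 and 0.24 with all estimates above 0. Their part in the sex difference of the members was not tested. *Rps28*, a small subunit protein, had the smallest p. It stood at 27.9 to 38.6 CPM in females (median 32.4) and 23.4 to 28.6 CPM in males (median 26.5), with overlapping ranges and a log2 difference of 0.33 (SE 0.095, unadjusted p 0.0037). *Rps29*, also of the small subunit, spanned 87.1 to 115 CPM in females and 74.7 to 94.5 CPM in males, a difference of 0.25 (SE 0.077, unadjusted p 0.0061). The X-linked *Rpl10*, at 0.27 (SE 0.11, unadjusted p 0.025), was among the 13, whereas *Rpl36a* at 0.13 and *Rps4x* at 0.08 were not. Also among them were *Rpl9*, *Rpl21*, *Rpl27a*, *Rpl32*, *Rpl38*, *Rpl41*, *Rps3a1*, *Rps16* and *Rps27a*.

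The count of 13 rested on single mice. It was 27 without male WT replicate 1, 7 without male WT replicate 2, and 4 without female *Nell-1+/6R* replicate 1, and it was 5 without any one of female *Nell-1+/6R* replicate 2, male *Nell-1+/6R* replicate 1, male *Nell-1+/6R* replicate 3 and female WT replicate 2. Without the 3 mice with *Ttr* above 1000 CPM it was 3, *Rps28* and *Rps29* among them, with *Rps2* lower in females and a median difference of 0.04. The median difference was 0.06 without female *Nell-1+/6R* replicate 1. *Rps2* was also lower in females, as the only member, without female WT replicate 1.

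The genotype difference was last compared between females and males. In females the median log2 fold change of the members was 0.14 and 70 of 78 lay above 0. In males the median was -0.05 and 19 lay above 0. Over all genes the medians were 0.00 in both sexes. The interaction term, the female minus the male effect, had a median of 0.20 over the members (0.12 without male WT replicate 1 and 0.30 without female *Nell-1+/6R* replicate 3, the extremes when single mice were left out) and 2 members with an unadjusted p under 0.05 (2.56%, background 3.09%), *Rps4x* with 0.36 (unadjusted p 0.025) and *Rps9* with 0.39 (unadjusted p 0.032). No adjusted p was under 0.05 by edgeR's quasi-likelihood test, and DESeq2 and limma-voom also gave 2. *Rps4x*, the X-linked form of a small subunit protein, stood at 27.7, 27.3 and 27.4 CPM in female WT and 33.7, 33.2 and 30.7 CPM in female *Nell-1+/6R* mice, without overlap, and at 33.8, 28.8 and 25.8 CPM in male WT and 26.7, 28.3 and 26.5 CPM in male *Nell-1+/6R* mice, which overlapped. *Rps9*, an early-assembling small subunit protein, stood at 43.6, 49.0 and 37.3 CPM in female WT and at 55.4, 49.1 and 47.3 CPM in female *Nell-1+/6R* mice. It was at 47.9, 40.9 and 43.8 CPM in male WT and at 36.6, 44 and 37.4 CPM in male *Nell-1+/6R* mice, so both sexes overlapped. The count of 2 was 0 without female *Nell-1+/6R* replicate 1 and also without male WT replicate 1, 27 without female *Nell-1+/6R* replicate 3, 8 without female WT replicate 2 or male WT replicate 3, 7 without male *Nell-1+/6R* replicate 2 and 5 without male WT replicate 2. It was 1 without male *Nell-1+/6R* replicate 1, male *Nell-1+/6R* replicate 3 or the 3 mice with *Ttr* above 1000 CPM. The 579 other short mRNAs had a median interaction of 0.14.

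**Figure D5:**
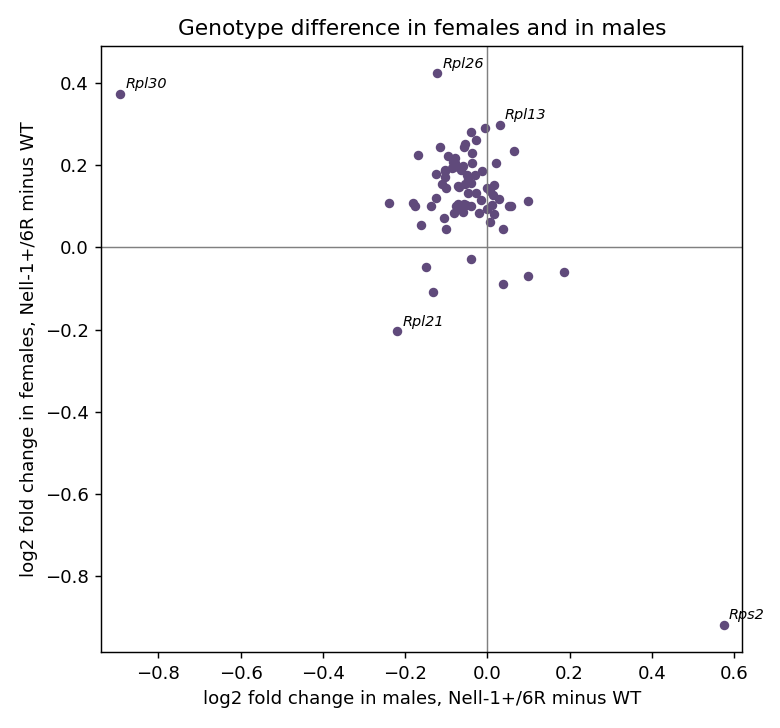
Log2 fold change of each member, *Nell-1+/6R* minus WT, in males (horizontal axis) and in females (vertical axis). Most of the 78 points lie above 0 in females and below 0 in males, and *Rpl30* and *Rps2* lie far from the rest in opposite corners.

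Promoters of the members were read for short motifs, and the share of members with each was set beside that of all genes. RefSeq promoter windows of GRCm38.p6, 250 bases before to 50 after the annotated start, were matched for 59 of the 78 members and 17491 protein-coding genes in all. The windows of *Rpl15*, *Rps10*, *Rpl35* and *Rps6* are shown as examples with a pyrimidine run at the start, and that of *Rpl4* as one of the most abundant members without it, and all were picked after they had been read. Each runs from 40 bases before to 20 bases from the annotated start, on the strand of the gene, and capitals mark the unbroken run of C and T from the first transcribed base.
Rpl15, chr14:18270967-18271026, minus strand: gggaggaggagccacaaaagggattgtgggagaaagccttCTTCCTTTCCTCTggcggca
Rps10, chr17:27635225-27635284, minus strand: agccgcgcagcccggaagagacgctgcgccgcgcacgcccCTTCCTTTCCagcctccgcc
Rpl35, chr2:39005112-39005171, minus strand: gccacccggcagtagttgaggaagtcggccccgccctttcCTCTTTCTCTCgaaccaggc
Rps6, chr4:86857348-86857407, minus strand: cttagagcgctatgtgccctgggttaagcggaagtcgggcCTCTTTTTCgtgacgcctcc
Rpl4, chr9:64173347-64173406, plus strand: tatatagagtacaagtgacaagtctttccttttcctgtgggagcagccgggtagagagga
The run is 13, 10, 11 and 9 bases long in the first 4 and 0 in *Rpl4*, whose window holds pyrimidines upstream of the annotated start.

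A gene was counted for a feature if any of its windows held it, and the number of windows per gene was not taken into account. A first transcribed base of C was annotated for 35.6% of the 59 members and 16.1% of all genes, and a start of 5 pyrimidines for 27.1% and 4.64%. CTTTCC on the gene's strand, from 10 bases before to the base 16 of the transcript, was found in 15.3% of members and 1.25% of genes. The ETS letters CCGGAAG, on either strand, occurred in 40.7% of members and 12.9% of genes, and AAGATGGC, on either strand, in 10.2% and 3.57%. GGGCGG on either strand was in 64.4% and 49.2%. TATAAA on the gene's strand was in 8.47% and 9.82%. A match is a description of letters in the window, and absence says nothing of the factor.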

How the data were processed

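Reads were single and 50 bases long, and per the labels and the study's methods the authors aligned them to mm10 with HISAT2 (2.1.0) and counted them per gene with featureCounts (2.0.1 in the submitters' processing notes, another version in the methods). The deposited values are raw counts under Entrez gene IDs, and the sources used here state neither the strand nor the multi-mapping setting. Titles of the WT samples also hold the abbreviation for heterozygous, and their genotype field was followed. Each sample was 1 mouse.

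Symbols were taken from RefSeq by Entrez ID (25275 of 27179), and exon lengths and shared stretches from GENCODE M21. The 17937 genes that reached 0.2 CPM in 2 or more mice were tested with edgeR 4.0.16 (R 4.3.3) with TMM factors, sex and genotype as terms, and Benjamini-Hochberg adjustment over all genes. The interaction came from a model of 4 groups. Deviations and SDs used log2 CPM with a prior count of 2. Alternatives used limma 3.58.1 and DESeq2 1.42.0, and the fit was tested on simulated data. Tables and figures used Python with pandas and matplotlib.

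Members, lists and tests were chosen with earlier results of these data known. Named genes were *Nell1*, *Rpl29*, members with the smallest p or non-overlapping genotypes, the 3 largest rises and falls, the 6 highest and lowest per kilobase, the 3 most and least variable, X-linked members, the 3 nearest *Nell1*, paralogs, stalk and 5S genes, genes of the other lists with an unadjusted p under 0.05, and those below the CPM filter. A list of ribosomal protein pseudogenes was added after the data were seen and gave 1 of 14 tested, *Rpl31-ps21*, at 0 to 0.55 CPM. Some genes and a sequence are not reported here.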

Additional observations from a re-analysis of the deposited data

Results flagged for a closer look

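Among the genotypes' 6 mice each, 88 sets of values were screened for a mouse far from its group (the gap to the nearest mouse relative to the range, Dixon's criterion), and 1 was found, where chance alone flags about 1 in 20. *Rps4x* in male WT replicate 1 stood at 33.8 CPM, above the other 5 WT mice. The genotype effect differed between the sexes at an unadjusted p under 0.05 for *Rps4x*, by 0.36 on the log2 scale (interaction term of edgeR's quasi-likelihood test, unadjusted p 0.025, adjusted p 0.99), higher in *Nell-1+/6R* females and lower in *Nell-1+/6R* males than in WT counterparts. The same held for *Rps9*, by 0.39 (unadjusted p 0.032, adjusted p 0.99). These 2 genes are 2.56% of the members, against 3.09% of all genes tested. Neither kept an unadjusted p under 0.05 without male WT replicate 1, the mouse in which *Rps4x* stood apart. The same held without female *Nell-1+/6R* replicate 1 and without male *Nell-1+/6R* replicate 1.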

How the results depend on the processing

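*Nell1* kept its direction and an adjusted p under 0.05 in every setting but those with 1 sex alone, with -1.0 (adjusted p 0.11 by edgeR) in females and -0.85 (adjusted p 0.26) in males, where 6 mice were fitted. Leaving out each mouse gave -0.98 to -0.89. No setting gave a member with an adjusted p under 0.05 or past the study's thresholds for genotype. The count of members higher in *Nell-1+/6R* mice at an unadjusted p under 0.05 was 1 by DESeq2 (*Rpl3*), 3 in females alone (*Rpl31*, *Rps3a1* and *Rps4x*) and 1 in males alone (*Rpl15*), and 0 to 4 without each mouse in turn. The median fold change was 0.01 to 0.09 without each mouse, 0.14 in females alone, -0.05 in males alone and -0.01 without the 3 mice with *Ttr* above 1000 CPM, an alternative chosen after seeing the data. For sex, the count higher in females was 4 to 27 and the count lower 0 to 1 without each mouse, and without the 3 *Ttr* mice 3 were higher and 1 lower. For the interaction the count was 0 to 27 without each mouse and 1 without the 3 *Ttr* mice. The median level per kilobase was 36.9 with the longest transcript and 56.4 with the main mRNA, a length added after seeing the data. Of 675 alternative fold changes of 27 members chosen by the naming rule, 643 stayed within 1 standard error. Leaving out single mice gave 1 of the other 32, for *Rps2*, and the rest came from other settings. Their cause was not tested.

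With the replicate number within each sex as a replicate block, 0 members passed an unadjusted p of 0.05, the median fold change was 0.05 and *Nell1* stood at -0.93. Same-numbered mice correlated at -0.41 to 0.38 in their deviations over 14369 genes, so the numbers were not read as pairs, and the block, fitted for the genotype difference only, changed no call of that difference. Depth limits *Rpl21*, with 30 to 66 counts per mouse, and *Rpl29*, with 1 to 12.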
